A study of Homo sapiens with 4 samples.

Results

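The genes described here are the chemokines, the interleukins, a few related cytokines and the subunits, inhibitors and well-known products of the transcription factor NF-kB. They were chosen by gene symbol: every CXCL and CCL gene, every interleukin gene whose number is followed by nothing or by A or B, 6 NF-kB genes named NFKB, and 12 others from CX3CL1 and LIF to ICAM1 and PTGS2. The rule found 83 of the 17716 genes with a probe set of their own, a probe set being the short probes whose signals are combined into 1 value for a transcript. Each of the 83 had 1 probe set among the deposited values, in which only 338 genes had more than 1. Whether the array carries further probe sets for them is not known from these values. A further 8 genes that the rule names, among them CCL3, CSF2 and IL9, had no deposited probe set of their own and were not analysed here.

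RNA from Hs683, an established line of human glioma cells, was hybridised to 4 Affymetrix arrays. The 2 miR-20a arrays came from QK-knockdown Hs683 cells transduced with miR-20a. The 2 miR-NT arrays came from Hs683 cells with the same QK knockdown that received a scrambled microRNA, miR-NT, in its place. QK, now named QKI, encodes an RNA-binding protein and was knocked down in both groups, so no array shows these genes at normal QKI. The labels do not say how it was knocked down or whether the replicates were separate cultures, and p-values therefore reflect only how far these arrays differ, a spread that may be technical. All 4 arrays describe 1 cell line.

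Chemokines are small secreted proteins that direct the movement of cells along a gradient, and interleukins and colony-stimulating factors carry signals between immune, stromal and tumour cells. Many of them are transcribed when NF-kB enters the nucleus. NF-kB dimers are held in the cytoplasm by inhibitor proteins of the IkB family until a kinase complex marks the inhibitor for degradation, and the inhibitor gene NFKBIA is itself switched on by NF-kB, which closes a feedback loop. Glioma cells often secrete IL-6, CCL2, CXCL8 and LIF. MicroRNAs lower the level or translation of transcripts that pair with their seed, bases 2 to 8. The sequence added to the cells is shown because its seed defines the microRNA family. The labels give no strand of the hairpin, and RefSeq (GRCh38.p14) lists the mature 5p strand at chr13:91351072-91351094, plus strand, with the seed in capitals.
miR-20a-5p: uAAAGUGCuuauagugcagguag
At least 7 other human mature microRNAs in the RefSeq table share this seed, among them miR-17-5p, miR-93-5p and miR-106b-5p.

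The stretches just upstream of 4 members' start sites are shown because the genes they belong to, CXCL8, NFKB1, NFKBIA and IL6, carry much of the description below. Each runs 5′ to 3′ on the gene's strand and ends at the base before the RefSeq start in GRCh38.p14. Capitals mark letters that match the NF-kB consensus or GGAATTTCC, searched on both strands. The windows lie at chr4:73740319-73740568 (plus strand, CXCL8), chr4:102501109-102501358 (plus, NFKB1), chr14:35404750-35404999 (minus, NFKBIA) and chr7:22726950-22727199 (plus, IL6).
CXCL8: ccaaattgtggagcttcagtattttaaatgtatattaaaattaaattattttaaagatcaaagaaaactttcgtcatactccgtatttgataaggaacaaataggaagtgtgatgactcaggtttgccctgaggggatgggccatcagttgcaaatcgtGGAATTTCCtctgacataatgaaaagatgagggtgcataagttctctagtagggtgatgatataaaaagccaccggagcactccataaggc
NFKB1: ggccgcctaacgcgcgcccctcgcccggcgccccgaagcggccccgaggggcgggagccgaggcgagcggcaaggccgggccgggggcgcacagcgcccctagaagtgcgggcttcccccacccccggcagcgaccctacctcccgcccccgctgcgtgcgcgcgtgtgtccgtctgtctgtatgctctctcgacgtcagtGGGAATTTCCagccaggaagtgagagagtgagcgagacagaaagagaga
NFKBIA: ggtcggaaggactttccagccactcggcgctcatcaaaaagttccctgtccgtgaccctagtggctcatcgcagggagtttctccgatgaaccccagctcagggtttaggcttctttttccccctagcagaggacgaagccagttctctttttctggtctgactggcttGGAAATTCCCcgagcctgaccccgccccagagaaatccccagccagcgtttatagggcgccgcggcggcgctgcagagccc
IL6: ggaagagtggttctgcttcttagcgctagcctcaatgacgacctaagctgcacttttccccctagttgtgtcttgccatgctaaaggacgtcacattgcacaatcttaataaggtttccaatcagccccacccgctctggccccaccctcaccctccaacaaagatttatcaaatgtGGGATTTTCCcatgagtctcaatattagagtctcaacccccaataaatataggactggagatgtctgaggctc

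RefSeq promoter windows were on hand for 60 of the 83 members. A match to the NF-kB consensus, a motif of 10 letters, lay in 20 of them, 33.3%, against 10.8% of 27305 promoter windows of the same length in all. The letters GGAATTTCC, which overlap the consensus in many promoters, were found in 13 members, 21.7%, against 0.472% of all windows. Either form was present in 22 members, 36.7%, against 11% of all windows. Besides the 4 shown, the matches included REL, NFKBIZ, TNFAIP3, ICAM1, CXCL5 and CXCL10, and the chemokines CXCL1, CXCL2, CXCL3 and CXCL6. The CXCL genes named here all lie on chromosome 4, and matches in such related genes may not be independent. All windows include those of the members. The letters TATAAA, on either strand and at any position, were found in 36.7% of member windows and 12% of all windows. The AP-1 letters TGANTCA were found in 18.3% and 7.76%. In CXCL8 the match lies at bases -91 to -83 from the start, in NFKBIA at -81 to -72, in IL6 at -73 to -64 and in NFKB1 at -49 to -40. A match is a run of letters and does not show that NF-kB binds there.

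Array medians over all probe sets lay between 6.43 and 6.45 on the log2 scale. The QKI probe set measured 7.52 and 7.08 with miR-20a, against 8.14 and 7.92 with miR-NT (log2 fold change -0.73, SE 0.16, limma adjusted p = 0.106). Signal from the 5' end of ACTB, which falls when RNA is degraded or labelling is short, was 11.59 and 10.43 with miR-20a, against 12.78 and 12.66 with miR-NT, and that of GAPDH 13.17 and 12.30, against 13.89 and 13.81. Of 10 glioma and glial markers, VIM, SPARC and CD44 were bright, and GFAP, S100B, NES and OLIG2 were among the dimmest 30% of genes. SOX2, PDGFRA and CSPG4 had means of 5.95, 5.77 and 5.97, under the background level defined below. Their log2 fold changes were -0.12, 0.37 and 0.36, and none passed. Of 8 measured immune cell markers, PTPRC, CD14, CSF1R and LYZ were among the dimmest 30%, and 1 of 8, CD3E, had a mean above the background level defined below. The 4 immune markers that were tested had log2 fold changes of 0.07 to 0.31. The summed log2 level of the 8 markers was 45.07 and 45.85 with miR-20a, against 44.52 and 44.24 with miR-NT, and the part of this in the results was not tested. Of 8 epithelial and endothelial markers 1, KRT18, was above that level, and their summed level was 45.88 and 46.32 with miR-20a, against 46.01 and 46.10 with miR-NT.

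Which members are expressed could be judged only roughly, since the table holds no detection calls and probe sets differ in brightness for equal amounts of RNA. As a background level, the 90th percentile of 24 measured genes restricted to other tissues, such as INS, ALB and HBB, was taken, which was 6.52 on the log2 scale. This equals the median of all gene means, also 6.52. On all 4 arrays 27 of the 83 members, 32.5%, were above it, against 46.8% of all genes. The T cell gene CD3E, with a mean of 7.51, was the brightest of the 24, and 10 members lay above that value on every array. These 10 were NFKBIA, NFKB1, NFKBIE, CCL2, CCL26, CX3CL1, IL6, LIF, IL7 and CSF1. The other members above 6.52, such as RELA, CXCL12, CCL22 and IL37, were not above CD3E, a gene that a glioma line is not known to make, on every array. By brightness alone their expression cannot be told apart from probe background. Among them, the probe sets of IL37, IL34 and CXCL5 are of a type that may also match other transcripts, marked _x_at in the name.

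**Figure D1:**
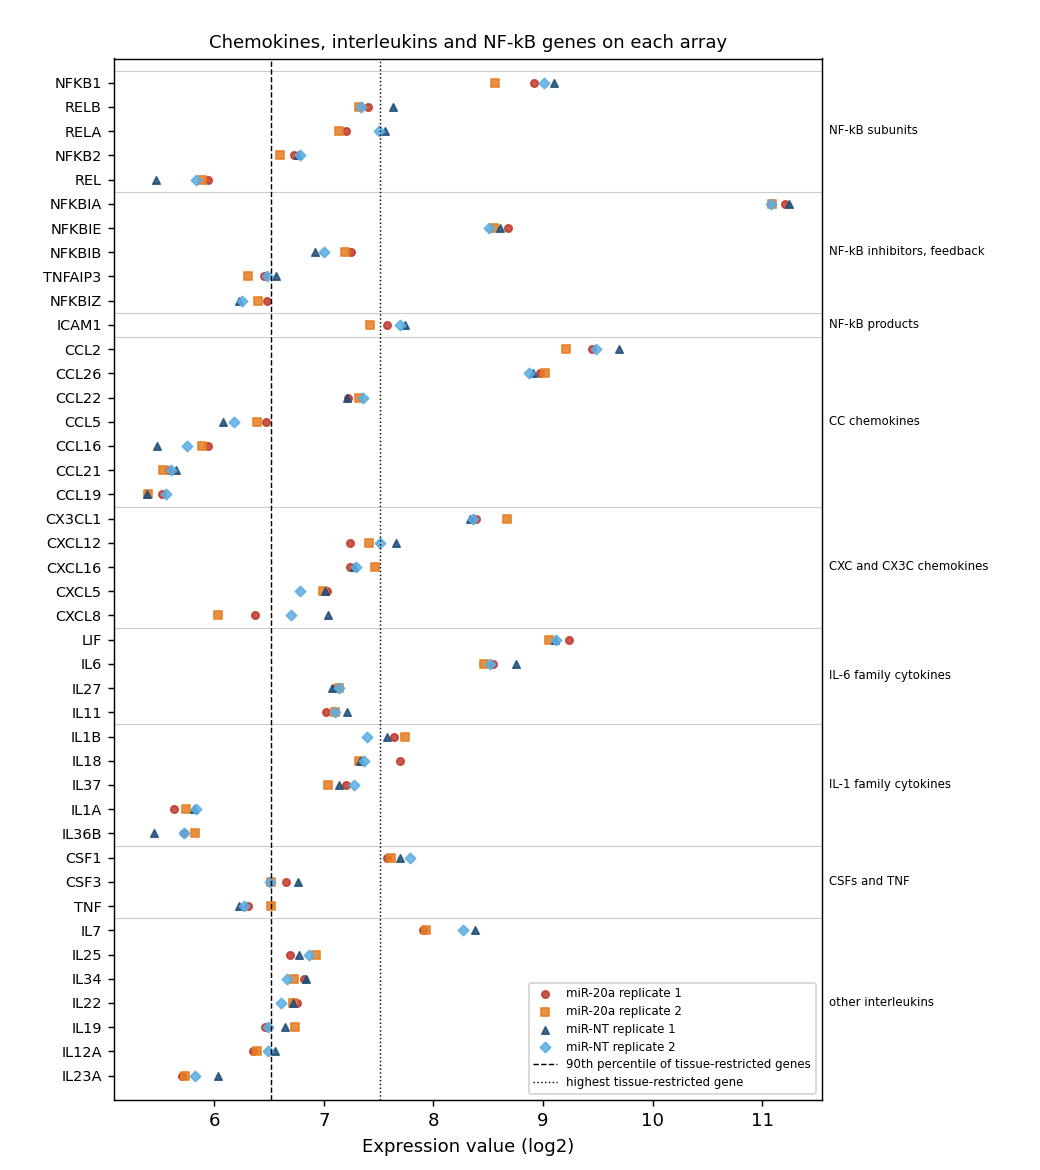
Log2 expression value of the 42 named members on each array, grouped by role, with miR-20a replicates as circles and squares and miR-NT replicates as triangles and diamonds. The dashed line is the 90th percentile (6.52) and the dotted line the highest mean (7.51) of the tissue-restricted genes; NFKBIA, at 11.08 to 11.25, lies farthest above both lines.

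No member was called at an adjusted p under 0.05. After the 30% of genes with the lowest means had been left out, 52 of the 83 members stayed among the 12401 genes tested with limma. Of these 52, 0 were called higher (0% of all genes tested) and 0 lower (0.00806% of all genes tested, which is 1 gene, TMED2, at a log2 fold change of -1.74). At an unadjusted p under 0.05, 3 members were higher and 5 lower with miR-20a, or 5.77% and 9.62% of the 52, against 5.82% and 13.2% of all genes tested. Both miR-20a arrays lay above both miR-NT arrays in 12 members, 23.1% against 25.1% of all genes tested. They lay below both miR-NT arrays in 14 members, 26.9% against 31.1% of all genes tested. The shares of members were therefore close to, or below, those of all genes. The log2 fold change was above 0 in 28 and below 0 in 24 members, with a median of 0.03 where that of all genes tested was -0.02. A fold change of at least 0.5 in size on the log2 scale was seen in 1 member, CXCL8, against 3.96% of all genes tested. With 2 arrays in each group the smallest p of an exact permutation test is 0.333, so this test was not used. These are bulk samples, in which fewer cells with a transcript and less of it per cell cannot be told apart.

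Of the 5 NF-kB subunits, 4 had a log2 fold change below 0 and 1, REL, above 0, where 53.8% of all genes tested were below 0. RELA, which encodes p65, the subunit that activates transcription in the main NF-kB dimer, measured 7.20 and 7.14 with miR-20a, against 7.56 and 7.50 with miR-NT. The replicates of RELA differed by 0.06 in each group, and the arrays of the groups did not overlap. Its log2 fold change was -0.36 (SE 0.10, 95% interval -0.58 to -0.13), or 1.28-fold lower, and did not pass over all genes (limma adjusted p = 0.147). NFKB1, the gene of the partner subunit p50 and its precursor p105, measured 8.92 and 8.56 with miR-20a, against 9.10 and 9.01 with miR-NT. Both miR-20a arrays were below both miR-NT arrays, and the pair itself differed by -0.36, more than the group difference of -0.32 (SE 0.13, limma adjusted p = 0.259). Without miR-20a replicate 2, the lower of the pair, the fold change of NFKB1 was -0.14. A fit that adjusts for the ACTB 5' signal put NFKB1 at 0.22 (limma adjusted p = 0.972) and RELA at -0.26 (0.957). ACTB 5' was lower on both miR-20a arrays than on both miR-NT arrays. This fit, with 1 residual degree of freedom, therefore cannot separate that signal from the group, here or for the genes below.

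NFKB2, which gives rise to p52 of the non-canonical pathway, measured 6.73 and 6.60 with miR-20a, against 6.76 and 6.78 with miR-NT (log2 fold change -0.10, SE 0.10). RELB, its usual partner, measured 7.40 and 7.32, against 7.63 and 7.34, and the groups overlapped (-0.12, SE 0.12). REL, encoding the c-Rel subunit best known from lymphocytes, went the other way, with 5.94 and 5.89 with miR-20a, against 5.47 and 5.83 with miR-NT (0.26, SE 0.13). All 4 REL values lay below the background level. None of these 3 passed, with limma adjusted p from 0.321 to 0.574.

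The inhibitors of NF-kB did not follow a single direction either. NFKBIA, the gene of IkB-alpha, measured 11.21 and 11.09 with miR-20a, against 11.25 and 11.08 with miR-NT. The groups overlapped fully, and the log2 fold change was -0.01 (SE 0.11), with a 95% interval of -0.27 to 0.24. NFKBIE, encoding IkB-epsilon, measured 8.68 and 8.55, against 8.61 and 8.51 (0.05, SE 0.10). NFKBIB, the gene of IkB-beta, was the inhibitor with the smallest p, at 7.25 and 7.19 with miR-20a, against 6.92 and 7.00 with miR-NT. Its arrays did not overlap, and its log2 fold change of 0.26 (SE 0.10, 95% interval 0.03 to 0.48) did not pass over all genes (limma adjusted p = 0.228). NFKBIZ, a nuclear member of the family that helps to induce IL6 and other secondary genes, measured 6.48 and 6.40, against 6.22 and 6.25 (0.21, SE 0.10). TNFAIP3, the ubiquitin-editing enzyme A20 that shuts the pathway off, measured 6.45 and 6.31, against 6.56 and 6.48 (-0.14, SE 0.10). NFKBIZ and TNFAIP3 were not above background on every array.

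**Figure D2:**
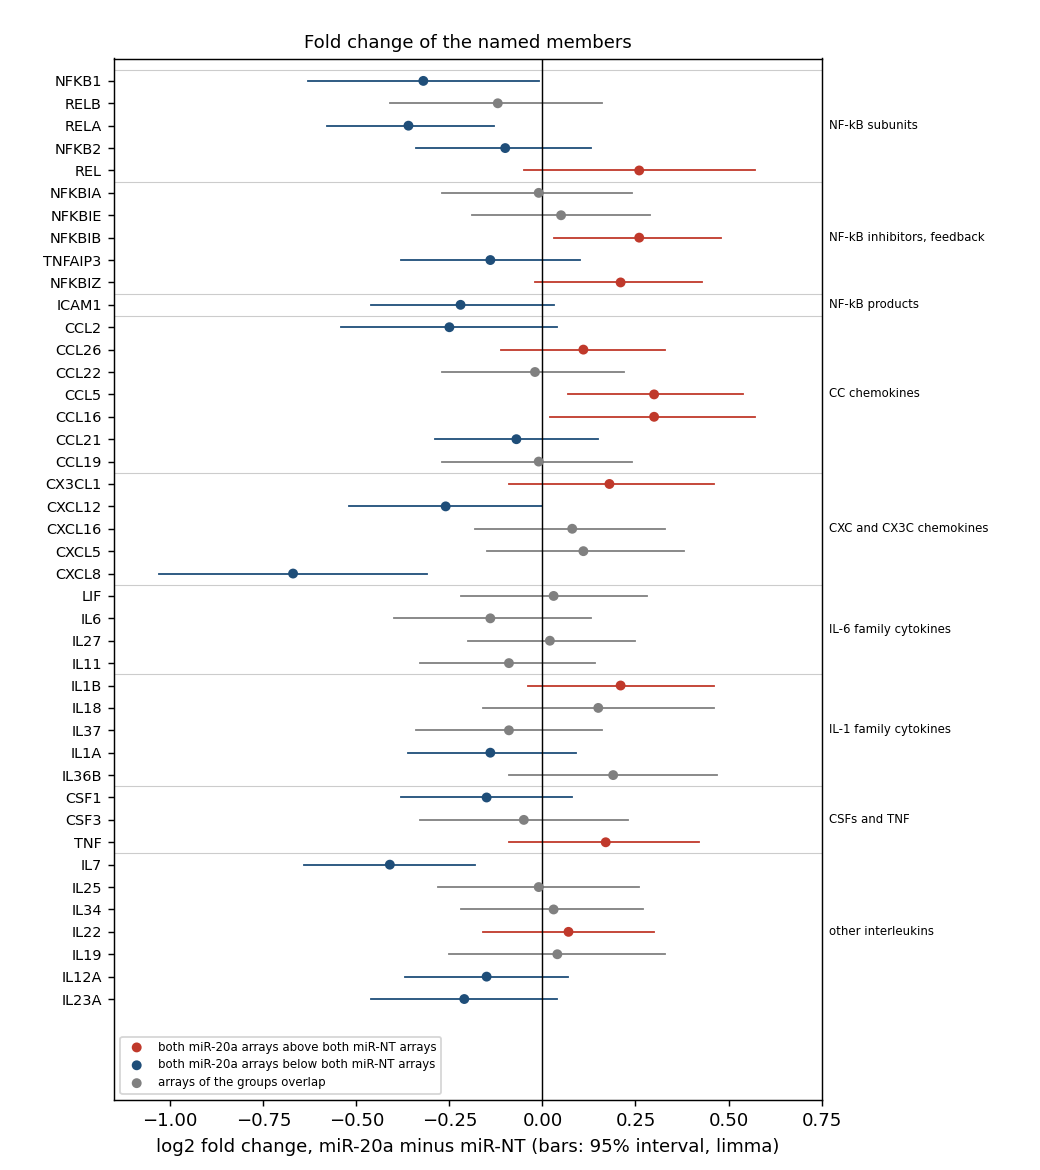
Log2 fold change, miR-20a minus miR-NT, of the 42 named members with 95% intervals from limma, grouped by role and coloured by whether the arrays of the groups overlap. CXCL8 at -0.67 lies farthest from 0, and the other members lie between -0.41 and 0.30.

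Among the products of NF-kB signalling that act on the cell surface or as enzymes, ICAM1, the adhesion molecule that binds leukocyte integrins, measured 7.58 and 7.42 with miR-20a, against 7.74 and 7.69 with miR-NT. The groups did not overlap, with a log2 fold change of -0.22 (SE 0.10, limma adjusted p = 0.299). Adjusted for ACTB 5', the value was 0.04. PTGS2, the inducible cyclooxygenase that makes prostaglandins, was left out as dim, at 4.63 and 4.89 with miR-20a, against 4.98 and 4.86 with miR-NT.

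CXCL8, the neutrophil attractant IL-8, had the largest difference in signal among the members tested. It measured 6.37 and 6.03 with miR-20a, against 7.04 and 6.70 with miR-NT. Both miR-20a arrays lay below the background level and both miR-NT arrays above it, and the replicates differed by 0.34 within each group. The log2 fold change was -0.67 (SE 0.16, 95% interval -1.03 to -0.31) and did not pass over all genes (limma adjusted p = 0.119). Since the miR-20a values lay below the background level, this is a difference between signals, and the fold in RNA is not known from it. The fold change was -0.84 without miR-20a replicate 1, where it passed (limma adjusted p = 6.82e-05), and -0.50 without miR-20a replicate 2, where it did not (limma adjusted p = 0.0551). Without replicate 1, IL7 (limma adjusted p = 0.0432), RELA (0.0417) and NFKB1 (0.00925) passed too, among 302 genes called higher and 1567 called lower, and the lone miR-20a array was assumed to vary like the miR-NT pair. Adjusted for ACTB 5', the CXCL8 fold change was -0.13 (limma adjusted p = 0.991). Since ACTB 5' was lower on both miR-20a arrays, that fit cannot separate it from the group, and its part in the difference was not tested.

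**Figure D3:**
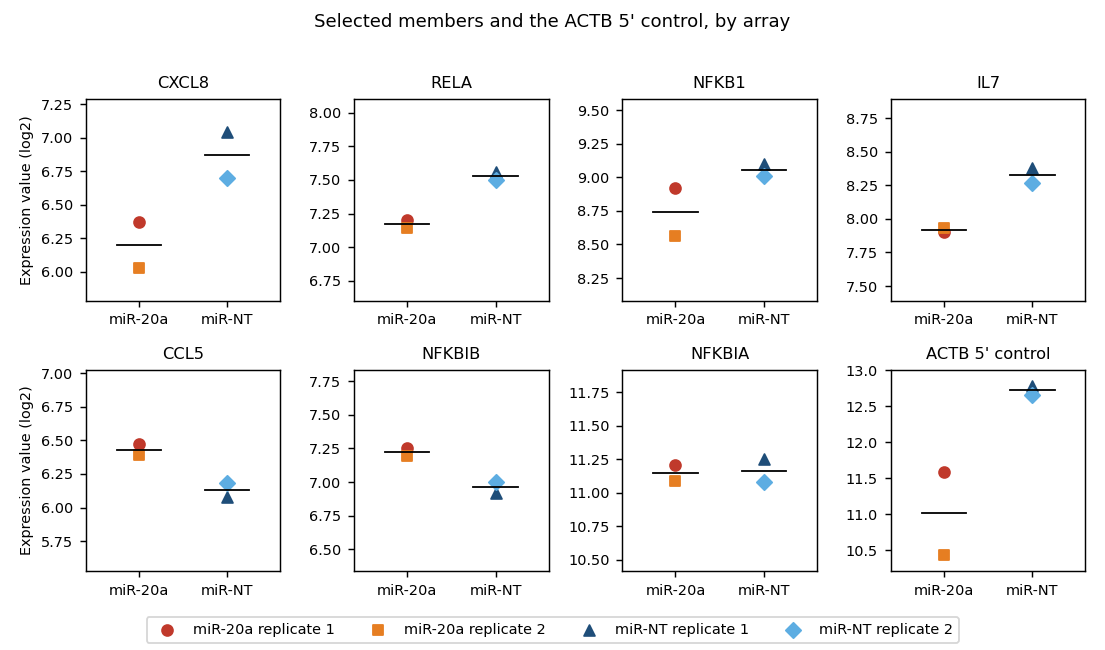
Log2 expression value of 7 members and of the ACTB 5' control on the 2 miR-20a and 2 miR-NT arrays; horizontal lines are group means, and all member panels span the same range while the ACTB panel spans a wider one. CXCL8, RELA, NFKB1 and IL7 are lower and CCL5 and NFKBIB higher on both miR-20a arrays, and NFKBIA overlaps.

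The other CXC and CX3C chemokines above background showed no common direction. CXCL12, the ligand of CXCR4 that guides stem and tumour cells, measured 7.24 and 7.41 with miR-20a, against 7.66 and 7.51 with miR-NT. The groups did not overlap (log2 fold change -0.26, SE 0.11, limma adjusted p = 0.26). CX3CL1, or fractalkine, a membrane-bound chemokine that attracts microglia, measured 8.39 and 8.67, against 8.33 and 8.36, so that the difference rests mainly on miR-20a replicate 2 (0.18, SE 0.12, and 0.04 without that array). CXCL16, a scavenger receptor and ligand of CXCR6, measured 7.24 and 7.47, against 7.27 and 7.29 (0.08, SE 0.11). CXCL5, a neutrophil attractant related to CXCL8, measured 7.03 and 6.99, against 7.01 and 6.78 (0.11, SE 0.11). CXCL1, CXCL2, CXCL3 and CXCL6, which also attract neutrophils, were left out as dim and not tested. CXCL3 measured 5.44 and 5.64 with miR-20a, against 5.23 and 5.23 with miR-NT. CXCL9 and CXCL10, which interferon induces, were tested but not above background on every array, with log2 fold changes of 0.06 and 0.07.

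Of 19 CC chemokines, 11 were tested and 3 lay above background. CCL2, the monocyte attractant MCP-1, measured 9.45 and 9.21 with miR-20a, against 9.69 and 9.48 with miR-NT. The miR-20a arrays were both lower, but the nearest arrays of the groups almost met (log2 fold change -0.25, SE 0.12, limma adjusted p = 0.306). Adjusted for ACTB 5', CCL2 was at 0.12. CCL26, eotaxin-3, an attractant of eosinophils, measured 8.97 and 9.02, against 8.91 and 8.87 (0.11, SE 0.10). CCL22, known from macrophages and dendritic cells, measured 7.22 and 7.32, against 7.21 and 7.36 (-0.02, SE 0.11).

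CCL5, or RANTES, which attracts T cells and monocytes, had the smallest p of the members with a positive difference. It measured 6.47 and 6.39 with miR-20a, against 6.08 and 6.18 with miR-NT, all below the background level. Its log2 fold change was 0.30 (SE 0.10, 95% interval 0.07 to 0.54, limma adjusted p = 0.194). CCL16, a chemokine known from liver, measured 5.94 and 5.89, against 5.48 and 5.75 (0.30, SE 0.12, limma adjusted p = 0.239). CCL21 and CCL19, the ligands of CCR7 in lymph nodes, had fold changes of -0.07 and -0.01, and their levels stayed between 5.38 and 5.65.

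IL6, LIF, IL11 and IL27 were grouped here as the IL-6 family. Among the ligand groups formed here, it was the only one with all its members above background, and their differences were small. The group depends on how members were chosen, since OSM, CTF1 and EBI3 were placed in the list of further cytokines described below. Their means were 6.18, 6.92 and 4.82, and of these only CTF1 lay above background. IL6 measured 8.54 and 8.46 with miR-20a, against 8.75 and 8.52 with miR-NT, and the groups overlapped (log2 fold change -0.14, SE 0.11, 95% interval -0.40 to 0.13). LIF, which signals through the same receptor chain as IL6 and is known for keeping stem cells undifferentiated, measured 9.24 and 9.05, against 9.11 and 9.12 (0.03, SE 0.11, 95% interval -0.22 to 0.28). IL11, which also uses that chain, measured 7.02 and 7.10, against 7.21 and 7.10 (-0.09, SE 0.10). IL27 measured 7.11 and 7.14, against 7.07 and 7.14 (0.02, SE 0.10). Neither IL11 nor IL27 was above CD3E on every array, so by brightness alone their expression cannot be told apart from probe background. The arrays of the groups overlapped in all 4 genes, and the intervals leave room for differences of up to 0.40 on the log2 scale in IL6.

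In the IL-1 family, IL1B, the secreted inflammatory cytokine, measured 7.64 and 7.74 with miR-20a, against 7.58 and 7.39 with miR-NT. The groups did not overlap (log2 fold change 0.21, SE 0.11, limma adjusted p = 0.326). IL1A, the related alarmin, was lower on both miR-20a arrays at 5.63 and 5.74, against 5.81 and 5.83, below background throughout (-0.14, SE 0.10). IL18, which activates natural killer and T cells, measured 7.69 and 7.32, against 7.33 and 7.37, so that only miR-20a replicate 1 stood higher (0.15, SE 0.13, and -0.03 without that array). IL36B measured 5.72 and 5.82, against 5.45 and 5.72 (0.19, SE 0.12), and IL37, an inhibitory member, 7.20 and 7.04, against 7.14 and 7.27 (-0.09, SE 0.11). IL33 was left out as dim.

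IL7, a growth factor of lymphocytes made by stromal cells, had the second-smallest p of all members. It measured 7.90 and 7.93 with miR-20a, against 8.38 and 8.27 with miR-NT. The miR-20a arrays differed by 0.03, and the groups were well apart. The log2 fold change was -0.41 (SE 0.10, 95% interval -0.64 to -0.18), or 1.32-fold lower, and did not pass over all genes (limma adjusted p = 0.127). Leaving out any 1 array gave -0.46 to -0.35. Adjusted for ACTB 5' it was -0.44 (limma adjusted p = 0.824), in a fit with 1 residual degree of freedom. CSF1, the growth factor of macrophages and microglia, measured 7.58 and 7.61 with miR-20a, against 7.69 and 7.79 with miR-NT (-0.15, SE 0.10). CSF3, that of neutrophils, measured 6.65 and 6.52, against 6.76 and 6.51 (-0.05, SE 0.12). TNF, the classic inducer of NF-kB, measured 6.31 and 6.52, against 6.22 and 6.27 (0.17, SE 0.11). CSF3 and TNF were not above background on every array.

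A further 4 interleukins were close to 0. IL25, IL34, IL22 and IL19 had log2 fold changes of -0.01, 0.03, 0.07 and 0.04, at values between 6.46 and 6.93 on all arrays. IL12A and IL23A, which encode subunits of IL-12 and IL-23, were lower on both miR-20a arrays. IL12A measured 6.35 and 6.39, against 6.55 and 6.49 (-0.15, SE 0.10), and IL23A 5.70 and 5.73, against 6.03 and 5.82 (-0.21, SE 0.11). Both lay near or below background, and neither passed.

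The other 10 members tested, CXCL9, CXCL10, CCL4, CCL11, CCL18, CCL25, IL13, IL21, IL32 and IL36A, had log2 fold changes from -0.01 to 0.14. The 31 members left out as dim had values from 3.22 to 5.64 and log2 fold changes from -0.24 to 0.31, which were not tested. They comprised 8 CC chemokines (CCL1, CCL7, CCL8, CCL17, CCL20, CCL23, CCL24, CCL28), 8 CXC chemokines (CXCL1, CXCL2, CXCL3, CXCL6, CXCL11, CXCL13, CXCL14, CXCL17), PTGS2, IL33 and 13 other interleukins. Among the 13 were the T cell cytokines IL2, IL3, IL4, IL5, IL10 and IL17A, with IL15, IL16 and IL24 as further examples. Low signal on a probe set does not show that a gene is silent.

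Fold changes were also set beside the NF-kB letters in the promoter windows, with no test of the difference. Of the 32 tested members with a window, the 15 with either form had a median log2 fold change of -0.02, with 9 below 0. The 17 without had a median of 0.02, with 8 below 0. The differences among the 4 genes whose sequences are shown ranged from -0.67 for CXCL8 and -0.32 for NFKB1 to -0.14 for IL6 and -0.01 for NFKBIA, although all 4 hold a match.

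**Figure D4:**
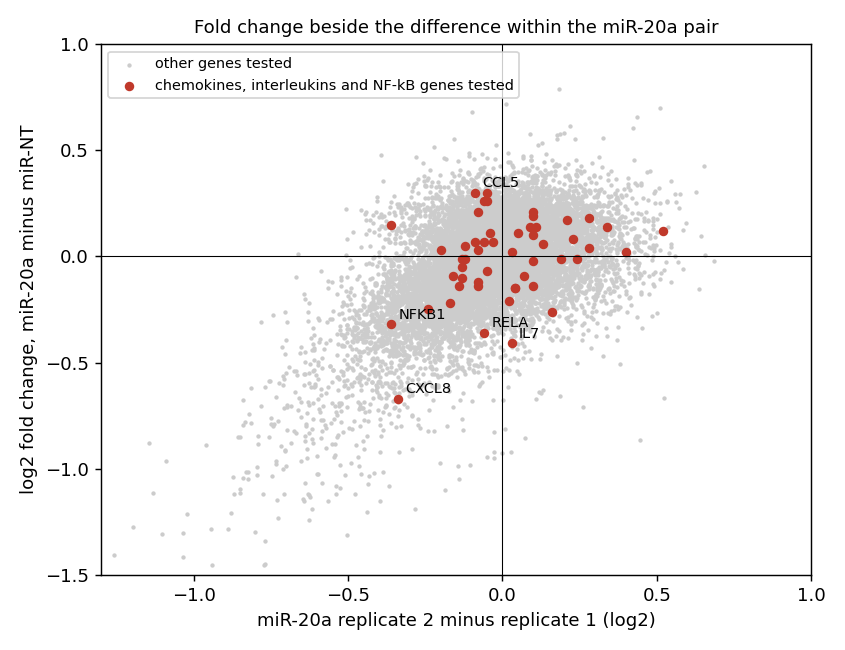
Log2 fold change, miR-20a minus miR-NT, against miR-20a replicate 2 minus miR-20a replicate 1 for the 52 members tested (red) over all other genes tested (grey); 7 genes lie outside the axes, and both axes hold the miR-20a arrays. NFKB1 and CXCL8 combine a negative fold change with a lower replicate 2, at pair differences of -0.36 and -0.34, while RELA at -0.06 and IL7 at 0.03 do not.

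The miR-20a pair also differed within itself. Replicate 2, the array with the lowest ACTB 5' signal, was the lower of the pair in 27 of the 52 members tested, where 58.9% of all genes tested were lower on it. The median pooled SD between replicates was 0.11 for the members and 0.10 for all genes tested, on the log2 scale. The part of RNA or labelling quality in the members' differences was not tested, since the covariate fits given above cannot separate it from the group.

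Receptors for these ligands were read from a list of 44 genes, 32 of which were tested. Of the 32, 0 passed, 15 were above 0 and 17 below, with a median log2 fold change of -0.03. IL17RC, a receptor chain for IL-17, measured 6.80 and 6.67 with miR-20a, against 7.48 and 7.34 with miR-NT (-0.68, SE 0.11, limma adjusted p = 0.0788). Its groups were well apart, and over all alternatives the fold change stayed between -0.75 and -0.46. With any 1 array left out it was at -0.75 to -0.61. IL13RA1, a chain of the IL-13 and IL-4 receptor, measured 6.98 and 6.56, against 7.24 and 7.37 (-0.53, SE 0.15). IL13RA1 was at -0.74 to -0.33 with any 1 array left out, and at 0.05 when adjusted for ACTB 5'. CSF2RA, the GM-CSF receptor chain, measured 5.91 and 5.85, against 6.35 and 6.09 (-0.34, SE 0.12), and IL17RD, a negative regulator of FGF signalling, 5.73 and 5.71, against 5.43 and 5.35 (0.33, SE 0.10).

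Kinases, adaptors and brakes upstream of NF-kB were read from a list of 38 genes, 28 of them tested, and 0 passed. Their median log2 fold change was -0.06, with 13 above 0 and 15 below. At an unadjusted p under 0.05, 7 of the 28 were lower and 0 higher, against 13.2% and 5.82% of all genes tested. IRAK1, the kinase that relays signals of the IL-1 and Toll-like receptors, measured 6.99 and 6.96 with miR-20a, against 8.10 and 7.75 with miR-NT. This was the largest difference of the list, at -0.95 (SE 0.13, 95% interval -1.25 to -0.65, limma adjusted p = 0.0727). IRAK1 passed after median centring (limma adjusted p = 0.0494) and with an intensity trend (0.0491). It did not pass after quantile normalization (limma adjusted p = 0.062) or with the replicate block (0.139). Adjusted for ACTB 5' it was at -0.86 and did not pass either (limma adjusted p = 0.176). The fold change of IRAK1 ranged from -1.12 to -0.78 when any 1 array was omitted. For MAP3K7 that range was -1.25 to -0.54. MAP3K7, or TAK1, which activates the IkB kinase complex, measured 6.86 and 6.14, against 7.47 and 7.32 (-0.89, SE 0.21). Its miR-20a arrays differed by 0.72, and adjusted for ACTB 5' it was at 0.18. The MAP3K7 probe set is of the _x_at type, which may also match other transcripts, as are those of CSF2RA above and CFLAR below. TAB2, which links TAK1 to ubiquitin chains, measured 7.44 and 7.47, against 7.92 and 7.72 (-0.37, SE 0.11), and IKBKB, the kinase that marks IkB proteins, 6.43 and 6.36, against 6.61 and 6.72 (-0.27, SE 0.10). The last 3 had limma adjusted p from 0.122 to 0.223.

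Other genes that NF-kB is known to induce, 21 tested of 30 listed, had a median log2 fold change of 0.02, with 11 above 0 and 10 below, and 0 passed. PLAU, the urokinase protease, measured 9.55 and 8.60 with miR-20a, against 10.42 and 10.30 with miR-NT (-1.28, SE 0.26, limma adjusted p = 0.1). It differed by 0.95 within the miR-20a pair and was at 0.11 when adjusted for ACTB 5'. With any 1 array left out it was at -1.76 to -0.81. CD44, the hyaluronan receptor, measured 10.53 and 10.08, against 11.24 and 11.12 (-0.87, SE 0.15). CD44 was at -1.10 to -0.65 with any 1 array left out, and at -0.20 (limma adjusted p = 0.977) when adjusted for ACTB 5'. TNFAIP2 measured 7.99 and 8.08, against 7.37 and 7.79 (0.46, SE 0.15), and CFLAR, an inhibitor of caspase-8, 7.80 and 8.17, against 7.48 and 7.77 (0.36, SE 0.15). TNFAIP2 was at 0.25 to 0.67 with any 1 array left out, and at 0.26 when adjusted for ACTB 5'. CFLAR was at 0.18 to 0.55 with any 1 array left out, and at -0.21 when adjusted for ACTB 5'. Of 20 further cytokines listed, 12 were tested, with 6 above 0, 6 below and 0 passing. FLT3LG, a growth factor of dendritic cell precursors, measured 7.29 and 7.09, against 7.65 and 7.51 (-0.39, SE 0.11). FLT3LG was at -0.48 to -0.29 with any 1 array left out, and at -0.08 (limma adjusted p = 0.995) when adjusted for ACTB 5'. MIF, the macrophage migration inhibitory factor, measured 12.23 and 12.02, against 12.46 and 12.26 (-0.24, SE 0.12), and TNFSF13B, a survival factor of B cells, 6.96 and 6.68, against 7.09 and 6.98 (-0.22, SE 0.12). IL1RN, the natural antagonist of IL-1, measured 6.01 and 6.38, against 5.88 and 5.95 (0.28, SE 0.14). IL1RN was at 0.09 to 0.46 with any 1 array left out, and at -0.28 when adjusted for ACTB 5'. These lists share some genes, and none of the genes named from them passed with all 4 arrays, apart from IRAK1 in the fits given above.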

How the data were processed

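The authors deposited 1 value for each of 20323 probe sets on each array, on a log2 scale as judged from the range. Per the submitters' processing notes the R package affy was used. How probes were summarised, background-corrected and normalized, and the genome build, is not given in the sources used here. Samples were grouped by source name. Gene names came from the platform annotation, updated through RefSeq's gene table (18034 identifiers matched), leaving out 886 with several genes and 3 controls. For each of 17716 genes the probe set with the highest mean was used, and the dimmest 30% were left out, which left 12401 genes. limma 3.58.1 in R 4.3.3 (lmFit, eBayes, two-sided, no covariate, 2 residual and 5.53 prior degrees of freedom) was used with Benjamini-Hochberg adjustment over all genes and a threshold of 0.05. Standard errors and 95% intervals are those of this fit. The script was tested on simulated data. With 2 arrays a group, the number of arrays limits the precision. The members and lists were chosen with earlier results of these data known. Named with values were members with a mean above the median of all genes and up to 6 more in each direction with the smallest p, and up to 4 of each list. PTGS2, CXCL3 and the other members mentioned, and TMED2, were named outside this rule. Alternatives were other normalizations, filters, priors and probe set rules, the replicate number, the ACTB 5' signal, and leaving out each array.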

Additional observations from a re-analysis of the deposited data

How the results depend on the processing

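No member passed with quantile-normalized or median-centred arrays, with no dim filter or one of 50%, with a robust intensity-trend prior, with probe sets averaged per gene, with the replicate block, with the ACTB 5' covariate, or without miR-20a replicate 2 or either miR-NT array. Without miR-20a replicate 1, 0 members passed higher and 4 lower. The members' median log2 fold change ranged from -0.018 to 0.047 over all alternatives, and from -0.009 to 0.027 with an array left out. Each value was less than 0.044 from the 0.025 reported. The 0.044 is the SD of the members' median level between replicates within a group, pooled over the groups. It is not the spread of a group difference. The median covered 83 members with no dim filter, and 30 with the dimmest 50% left out, where it was -0.018. The count of all genes called moved from 0 higher and 1 lower to 2 and 45 after median centring, 1 and 23 with the intensity trend, 1 and 5 with the ACTB 5' covariate, 0 and 5 after quantile normalization, 0 and 4 with the dimmest 50% left out, and 0 and 0 with the replicate block. With an array left out it ranged from 0 to 302 higher and from 0 to 1567 lower. The labels do not say that the replicate numbers pair the arrays. Same-numbered deviations from the group means correlated at r = 0.267 over the genes tested, which are not independent replicates. The replicate block ended the call of TMED2 and gave CXCL8 a limma adjusted p of 0.139. With the highest tissue-restricted gene as the background level, an alternative chosen after seeing the data, 10 members were above it in place of 27. The cause of these shifts was not tested. Signs turned as follows, none of them in a value that passed. After quantile normalization, NFKBIA was at 0.12, CCL22 at 0.02 and IL25 at 0.004. Adjusted for ACTB 5', NFKBIA was at 0.18, CCL2 at 0.12, NFKB1 at 0.22, IL6 at 0.02, CX3CL1 at -0.23, ICAM1 at 0.04, RELB at 0.03, CXCL16 at -0.26, IL37 at 0.13, IL27 at -0.03, NFKB2 at 0.08, CSF3 at 0.17, IL19 at -0.35, IL36B at -0.0017, TNF at -0.15, TNFAIP3 at 0.08, CCL21 at 0.02 and CCL19 at 0.16. Among list genes in that fit, IL13RA1 was at 0.05, MAP3K7 at 0.18, CFLAR at -0.21, PLAU at 0.11, IL1RN at -0.28, MIF at 0.10 and TNFSF13B at 0.21. With an array left out, signs turned within these ranges: NFKBIA -0.10 to 0.07, LIF -0.07 to 0.13, NFKBIE -0.0063 to 0.11, IL18 -0.03 to 0.33, CCL22 -0.10 to 0.05, IL25 -0.13 to 0.11, IL34 -0.06 to 0.11, CXCL16 -0.04 to 0.19, CSF3 -0.18 to 0.07, IL19 -0.10 to 0.18, CCL19 -0.10 to 0.08, RELB -0.27 to 0.03, IL27 -0.01 to 0.06 and CXCL5 -0.0043 to 0.23. With 2 arrays a group, each fit without an array assumes that the lone array varies like the other pair. For members at or below 6.52, signal over background limits what could be seen, and a difference in RNA may be compressed there.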
